A study of Homo sapiens with 42 samples.

Results

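The coding genes of the 4 human HOX clusters were followed across 14 groups of poly-A RNA-seq libraries from 786-O cells. Members were all genes whose symbol is HOX, a cluster letter from A to D and a number. This rule took 39 of the 60609 genes counted, 11 in HOXA, 10 in HOXB, 9 in HOXC and 9 in HOXD, and used no measured value.

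HOX proteins are homeodomain transcription factors that set position along the body axis and in the limbs and the urogenital tract. The genes of a cluster lie in a row in which the low numbers (anterior genes) face one end and the high numbers (posterior genes) the other, and genes of one number in different clusters are paralogs. Adult kidney epithelium and its tumors keep a set of HOX genes on, and the paralog group 11 genes are needed for kidney development. Hypoxia-inducible factors (HIFs) are dimers of an α subunit, HIF-1α or HIF-2α, with HIF-1β (the product of ARNT). They bind the DNA core A/GCGTG, and the α subunits differ most in their intrinsically disordered regions (IDRs), the long C-terminal part that follows the structured DNA-binding and dimerization domains.

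The 786-O line is a clear cell renal cell carcinoma line that lacks a working VHL protein and makes HIF-2α but no working HIF-1α, and every group derives from it. Batch 1 held 27 libraries in 9 groups of 3. WT cells were compared there with HIF-1β KIN and HIF-2α KIN, in which the endogenous HIF-1β or HIF-2α gene carries a Halo tag and which are 1 clone each. The other 6 groups of batch 1 were stable lines in which a PiggyBac transgene with an L30 promoter adds a V5-Halo-tagged protein to the endogenous HIF-2α. These proteins were HIF-1α, the DNA-binding mutant HIF-1α R30E, the dimerization mutant HIF-1αDM (R170A, V191D), HIF-2α, the DNA-binding mutant HIF-2α R27E and the dimerization mutant HIF-2αDM (R171A, V192D). One label of HIF-2αDM names HIF-1α, and the group was taken as HIF-2αDM from its title and description. Batch 2 held 15 libraries in 5 groups of 3: WT, HIF-1α, HIF-2α and both domain swaps. HIF-1α/2α joins the structured part of HIF-1α to the IDR of HIF-2α, and HIF-2α/1α is the reverse. The paper names 3 biological replicates per sample, and neither it nor the labels describe independently made lines. The p-values were therefore taken to measure the spread between replicates and not between independently made lines. Whether the HIF-1α and HIF-2α lines of batch 2 are those of batch 1 is not stated. The batches also differ in RNA extraction and library kit, and values were compared within a batch.

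Library totals ran from 42377599 to 101186554 counts in batch 1 and from 76366799 to 109642159 in batch 2, of which HOX genes took 314.6 to 1070 CPM (counts scaled to library size) in batch 1 and 311.1 to 360.1 in batch 2. The transgenes were seen in their groups. HIF1A averaged 242 normalized counts in batch 1 WT cells and 3038 in HIF-1α cells, and EPAS1 (HIF-2α) averaged 14498 in WT and 44695 in HIF-2α cells. The mutant lines had HIF1A at 2512 (R30E) and 2249 (HIF-1αDM), and EPAS1 at 56676 (R27E) and 48666 (HIF-2αDM). In batch 2 HIF1A averaged 293 in WT and 13161 in HIF-1α cells, and EPAS1 12621 in WT and 42541 in HIF-2α cells. HIF-2α/1α cells averaged 9625 for HIF1A and 20745 for EPAS1, and HIF-1α/2α cells 9734 and 51430. HIF1A was also above WT in HIF-2α cells (910 and 936 in batches 1 and 2), and EPAS1 averaged 6177 in HIF-2α KIN cells. Among markers of the renal origin, PAX8 averaged 32594 and 27214 normalized counts in WT of batches 1 and 2, while LRP2, a proximal tubule marker, had none. Of the other renal and clear cell carcinoma markers listed, CA9 had none in batch 2 WT. There CUBN averaged 86.6, PAX2 1328, CDH6 5453, KRT18 19147, KRT8 102525 and VIM 196200. The leukocyte and endothelial markers PTPRC, CD3E, PECAM1 and CDH5 had at most 9 raw counts in any library. Of the pluripotency markers, SOX2 reached at most 23 raw counts and POU5F1 averaged 1369 and 1945 normalized counts in WT. In bulk libraries such as these, fewer cells of a type and less RNA per cell cannot be told apart.

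The promoters of 3 genes are shown because the values below turn on them: HOXD10 and HOXD11, which rose with the HIF-2α IDR, and HOXA13, which rose most with HIF-1α. Each line gives the 250 bases before the RefSeq start on GRCh38.p14, 5′ to 3′ on the gene's strand, with capitals marking ACGTG or GCGTG on either strand.
HOXD10, chr2:176116528-176116777, plus strand: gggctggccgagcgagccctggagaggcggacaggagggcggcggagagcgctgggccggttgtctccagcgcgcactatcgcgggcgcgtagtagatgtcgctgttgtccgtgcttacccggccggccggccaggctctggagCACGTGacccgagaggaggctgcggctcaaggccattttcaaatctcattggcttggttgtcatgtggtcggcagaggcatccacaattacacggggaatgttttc
HOXD11, chr2:176107030-176107279, plus strand: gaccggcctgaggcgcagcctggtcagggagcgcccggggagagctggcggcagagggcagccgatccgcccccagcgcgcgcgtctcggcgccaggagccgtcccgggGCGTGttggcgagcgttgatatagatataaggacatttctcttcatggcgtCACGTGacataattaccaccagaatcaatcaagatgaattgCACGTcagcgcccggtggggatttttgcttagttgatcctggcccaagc
HOXA13, chr7:27200092-27200341, minus strand: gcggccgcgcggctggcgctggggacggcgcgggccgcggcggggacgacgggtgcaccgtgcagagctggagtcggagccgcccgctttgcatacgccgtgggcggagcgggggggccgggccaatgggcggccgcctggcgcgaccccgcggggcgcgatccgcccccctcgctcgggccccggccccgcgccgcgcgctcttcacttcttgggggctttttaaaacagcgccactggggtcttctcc

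The HOXD10 window held 2 matches to ACGTG, which overlap as the palindrome CACGTG, and none to GCGTG. The HOXD11 window held 3 matches to ACGTG, 2 of them in another CACGTG, and 1 to GCGTG, and the HOXA13 window held no match to either. None of the windows overlapped an exon of GENCODE release 44. The HOXD windows lie in introns of the annotated loci of HOXD10 (chr2:176108790-176119937) and HOXD11 (chr2:176104216-176109754), and the HOXA13 window lies just before its gene (chr7:27193503-27200091). Such matches are common. At least 1 stood in 15084 of 34943 distinct promoter windows of this length (43.2%), with ACGTG in 18.5% and GCGTG in 32.2%. RefSeq listed 26 distinct HOX windows for 20 genes, and 17 windows held one (65.4%), namely 10 of 16 in HOXA, 0 of 1 in HOXB, 1 of 1 in HOXC and 6 of 8 in HOXD. HOXA3 alone had 7 of the HOXA windows, 4 of them with a match, and HOXC4 and HOXC5 share the HOXC window. Counted by gene, 15 of 20 had a match in at least 1 window, where a gene with several windows has more chances. The 3 windows shown were picked by the values of their genes. CACGTG also stood in windows of HOXA3, HOXA4, HOXA9 and HOXD1, which were lower with the HIF-2α IDR. It stood as well in those of HOXD3, which was higher, and of HOXD13, which had no read in WT cells. A match describes the letters only, and binding was not measured here.

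WT cells expressed genes of all 4 clusters, with the highest levels in HOXB and HOXA. Levels between genes are given as reads per kilobase of exon, scaled to library size (RPKM), computed from the counts and exon lengths. In batch 1 the order was led by HOXB7 at 23.8 ± 1.31 RPKM (SD, n = 3), HOXA3 at 19.7 ± 3.36, HOXB9 at 17.4 ± 0.177, HOXD4 at 12.6 ± 1.42 and HOXA9 at 9.07 ± 1.54. The spread of HOXA3 reached that of both its neighbours in this order. In batch 2 it was led by HOXB9 at 18.8 ± 1.13, HOXB7 at 13.6 ± 0.427, HOXA9 at 11.5 ± 0.0624, HOXA3 at 11.0 ± 0.219 and HOXD4 at 7.52 ± 0.299. The HOXC genes were lower, with HOXC6 at 4.59, HOXC4 at 4.27 and HOXC10 at 2.85 RPKM in batch 1, and HOXC10 at 3.78, HOXC6 at 3.21 and HOXC9 at 2.72 in batch 2. Summed over a cluster, batch 1 WT cells had 45.6 RPKM in HOXA, 67.6 in HOXB, 15.9 in HOXC and 30.0 in HOXD.

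The members with no read in WT cells stood at the cluster ends. HOXC12, HOXC13 and HOXD13, posterior genes, and HOXB1, the most anterior HOXB gene, had no read in any WT library. HOXD12 averaged 0.019 RPKM in WT cells of each batch, with 3 to 8 raw counts per WT library in batch 2. HOXA7, HOXA13, HOXB13 and HOXC11 were detected at 0.0546, 0.0877, 0.0977 and 0.116 RPKM in batch 1 WT cells. HOXC5, a central gene like HOXA7, stood at 0.0395 and 0.0207 RPKM in WT cells of batches 1 and 2. A gene was tested where its mean normalized count over a batch was at least 0.5, which 35 of 39 members passed in batch 1 and 36 in batch 2. HOXB1, HOXC12 and HOXC13 failed in both and HOXD13 in batch 1. The untested genes had at most 4 raw counts in a library of batch 1 and 2 in batch 2, and HOXD13 was tested in batch 2 on 0 to 4 raw counts.

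**Figure D1:**
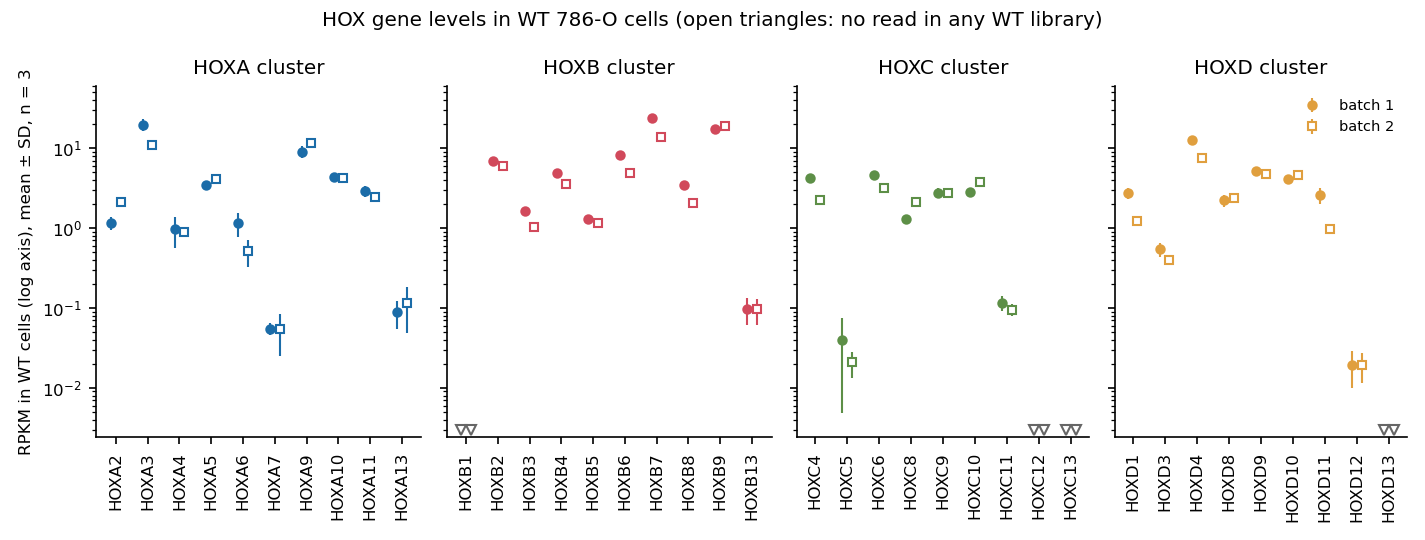
Level of HOX genes in WT 786-O cells, in RPKM on a log axis, 1 panel per cluster with genes in order of their number. Filled points are batch 1 means and open points batch 2 means (n = 3 libraries each), bars are SDs, and triangles mark the 4 genes with no reads in WT: HOXB1, HOXC12, HOXC13 and HOXD13.

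A gene is called below when edgeR's quasi-likelihood test gave a Benjamini-Hochberg adjusted p of at most 0.01 over all genes tested and a fold change of at least 2, and a looser rule takes an adjusted p of at most 0.05 with any fold. Fold changes are on the log2 scale with the standard error (SE) of the fit. Within a batch all comparisons against WT share the same 3 WT libraries.

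In batch 2 HOXD9, HOXD10 and HOXD11, 3 of the 5 posterior HOXD genes, were higher in cells given HIF-2α or the chimera with the HIF-2α IDR. HOXD10 and HOXD11 encode Abd-B-type HOX proteins that act in limb, spinal cord and kidney development. HOXD10 in batch 2 had 1088, 1039 and 991 normalized counts in WT, 1583, 1531 and 1411 in HIF-1α, 1268, 1316 and 1230 in HIF-2α/1α, 2473, 2676 and 2606 in HIF-2α, and 2900, 2753 and 2666 in HIF-1α/2α cells. All 6 libraries with a HIF-2α IDR stood above all 9 others. The log2 change over WT was 1.31 (SE 0.0734, adjusted p = 1.46e-19) in HIF-2α and 1.42 (SE 0.0734, adjusted p = 8.99e-21) in HIF-1α/2α cells. It was 0.54 in HIF-1α (adjusted p = 1.14e-07) and 0.29 in HIF-2α/1α cells (adjusted p = 0.0023), both under a fold of 2.

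HOXD11 had the same order of groups at a lower level. It had 169, 182 and 197 normalized counts in WT, 333, 328 and 277 in HIF-1α, 271, 261 and 263 in HIF-2α/1α, 597, 516 and 447 in HIF-2α, and 658, 654 and 717 in HIF-1α/2α cells. The 6 libraries with a HIF-2α IDR were again above all others, and the 3 WT libraries were the lowest. The log2 change over WT was 1.51 in HIF-2α (SE 0.13, adjusted p = 2.11e-13), 1.89 in HIF-1α/2α (SE 0.129, adjusted p = 1.44e-16), 0.77 in HIF-1α (adjusted p = 8.08e-06) and 0.53 in HIF-2α/1α cells (adjusted p = 0.00186). HOXD10 and HOXD11 share exon bases, and reads on shared bases could not be given to either gene by the counting used.

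HOXD9, the other posterior HOXD gene with more than a few reads, was higher in the same lines. It had 871, 775 and 764 normalized counts in WT, 1436, 1413 and 1376 in HIF-2α, and 1610, 1668 and 1846 in HIF-1α/2α cells, while HIF-1α and HIF-2α/1α cells averaged 965 and 873. Its log2 change was 0.81 in HIF-2α (adjusted p = 3.34e-11) and 1.09 in HIF-1α/2α cells (adjusted p = 4.4e-15). The most posterior genes, HOXD12 and HOXD13, were near silence, and HOXD12 had a log2 change of 0.24 (SE 1.04, adjusted p = 0.907) in HIF-2α and −0.22 (SE 1.06, adjusted p = 0.913) in HIF-1α/2α cells. Further along the cluster HOXD8 averaged 563 in WT, 818 in HIF-2α and 860 in HIF-1α/2α cells, and HOXD3 averaged 133, 228 and 244. Both passed the looser rule, at log2 changes of 0.54 and 0.61 for HOXD8 and 0.77 and 0.87 for HOXD3. HOXD4, the most expressed HOXD gene in WT by RPKM, had 736, 796 and 764 normalized counts in WT, averaged 735 in HIF-2α cells and passed the looser rule only in HIF-1α/2α cells (0.35, adjusted p = 0.00238). The whole HOXD cluster took 12.84 ± 0.51% of HOX normalized counts in WT, 14.68% in HIF-1α, 13.82% in HIF-2α/1α, 22.33% in HIF-2α and 24.88 ± 0.596% in HIF-1α/2α cells (SD, n = 3).

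**Figure D2:**
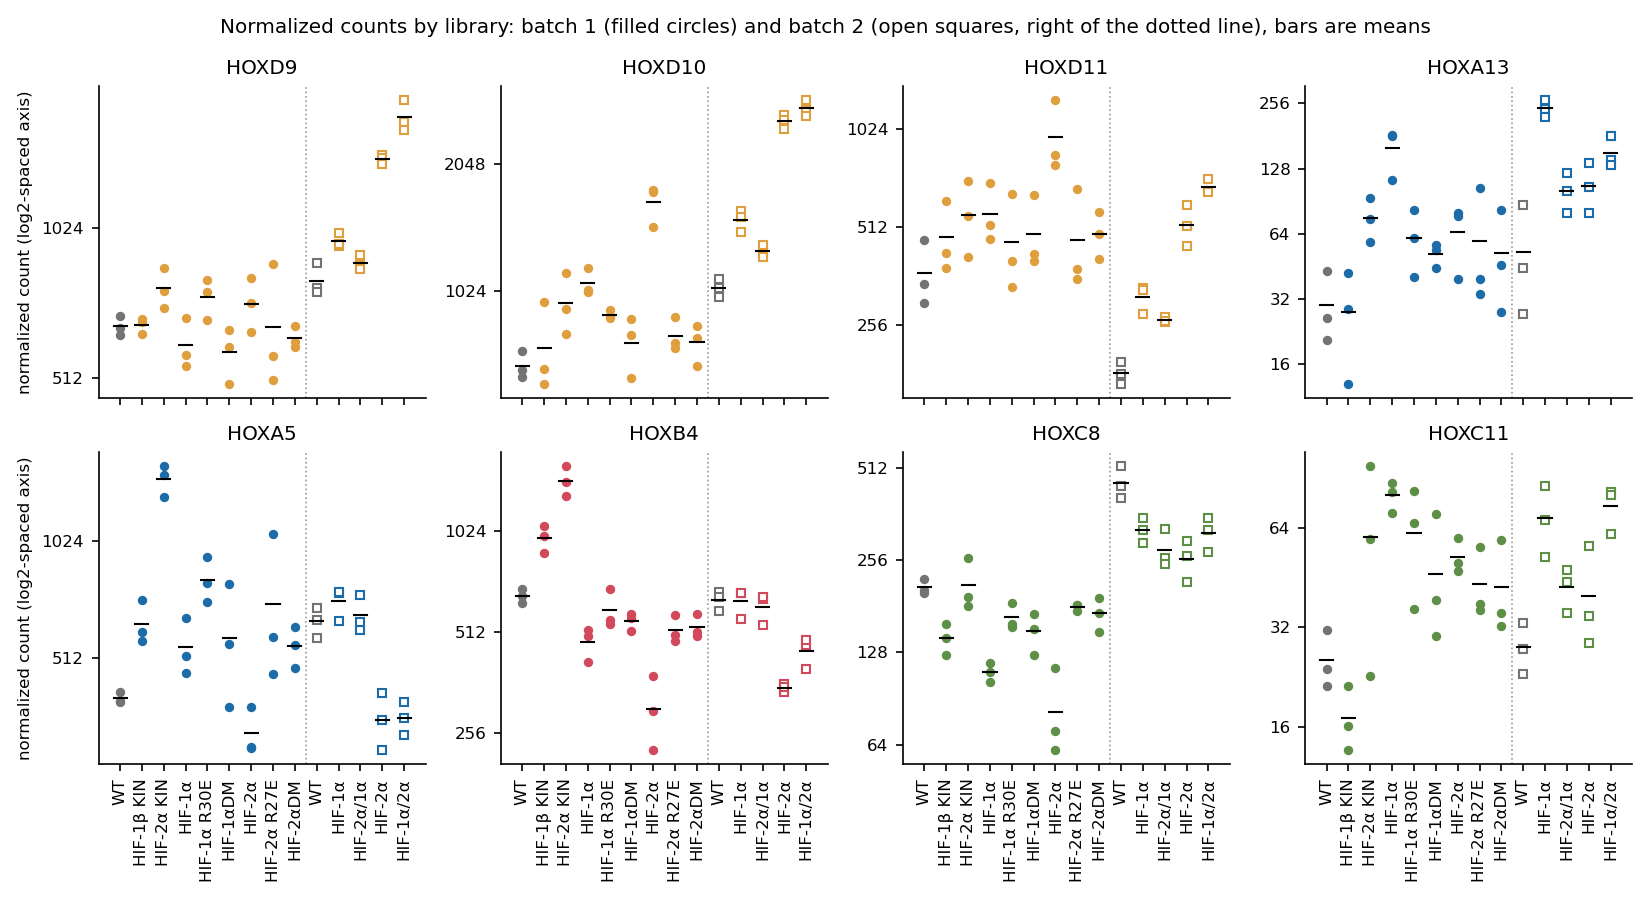
Normalized counts of HOXD9, HOXD10, HOXD11, HOXA13, HOXA5, HOXB4, HOXC8 and HOXC11 in every library (points) of the 14 groups, with the group mean (line) on a log2-spaced axis, batch 1 as filled circles, batch 2 as open squares and WT in grey. HOXD10 stands highest in HIF-2α cells of both batches (means 1662 and 2585) and in HIF-1α/2α cells (2773), and HOXA13 stands highest in HIF-1α cells (159 and 243).

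HOXD10 and HOXD11 were also higher with HIF-2α in batch 1. In batch 1 HIF-1α cells their log2 changes over WT were 0.65 and 0.60, and neither was called. HOXD10 had 662, 639 and 736 normalized counts in WT and 1756, 1453 and 1777 in HIF-2α cells, a log2 change of 1.29 (SE 0.173, adjusted p = 4.49e-06). Both mutants of HIF-2α stayed near WT: HIF-2α R27E had 770, 746 and 886 (0.24, SE 0.171, adjusted p = 0.908) and HIF-2αDM 679, 790 and 846 (0.18, SE 0.171, adjusted p = 0.848). Set directly against the mutants, HIF-2α cells had higher HOXD10 by 1.05 over R27E (SE 0.172, adjusted p = 0.00011) and 1.11 over HIF-2αDM (SE 0.172, adjusted p = 5.02e-05). These comparisons share the HIF-2α libraries, and without HIF-2α replicate 3 the call against R27E was lost.

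HOXD11 in batch 1 had 299.8, 342 and 467 in WT and 853, 793 and 1252 in HIF-2α cells (1.38, SE 0.292, adjusted p = 0.00144). The groups did not overlap, but the call was lost without WT replicate 1, WT replicate 2 or HIF-2α replicate 3. Against the mutants its log2 change was 1.05 (R27E, adjusted p = 0.0205) and 0.99 (HIF-2αDM, adjusted p = 0.0282). In a fit with replicate blocks the comparison with R27E was called (adjusted p = 3.21e-06). HOXD9 overlapped between WT (626, 645 and 682) and HIF-2α cells (633, 724 and 812) in batch 1, at a log2 change of 0.15 (SE 0.172, adjusted p = 0.628).

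HOXA13, the most posterior HOXA gene and a regulator of limb and genitourinary patterning, was highest in HIF-1α cells. In batch 1 it had 20.6, 26.1 and 42.9 normalized counts in WT and 113, 180 and 183 in HIF-1α cells, a log2 change of 2.40 (SE 0.477, adjusted p = 0.00117) and the only member called in that comparison. In a fit with replicate blocks HOXA7, HOXB13 and HOXC11 were called as well. The HOXA13 call was lost without WT replicate 1 or 2. HIF-1α R30E averaged 61.0 and HIF-1αDM 51.6, and HIF-1α cells were higher than them by 1.38 (adjusted p = 0.11) and 1.62 (adjusted p = 0.0584). In a fit with replicate blocks both differences were called (adjusted p = 0.00564 and 0.00235). The means of both mutant lines lay above every WT library, and HOXA13 in HIF-2α cells was at 1.12 over WT, not called.

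In batch 2 HOXA13 was again higher in HIF-1α cells. It had 86.7, 44.5 and 27.1 normalized counts in WT and 240.2, 265 and 223 in HIF-1α cells (2.20, SE 0.255, adjusted p = 2.16e-09). HIF-1α/2α cells followed at 182, 140.4 and 133 (1.53, adjusted p = 3.44e-06), also above every WT library. HIF-2α cells had 79.3, 135 and 106 (1.01, adjusted p = 0.00182) and HIF-2α/1α cells 101, 122 and 79.9 (0.94, adjusted p = 0.006), and both overlapped the highest WT library. The HIF-2α call was lost when any of 3 of the 6 libraries was left out.

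HOXA7 and HOXC11, both near silence in WT, were higher in several lines at low counts. HOXA7 in batch 2 had 5.78, 18.6 and 11.0 normalized counts in WT, 23.1, 42.6 and 36.0 in HIF-1α (1.49, adjusted p = 0.00993) and 35.6, 48.8 and 47.7 in HIF-1α/2α cells (1.86, adjusted p = 0.000636). The HIF-1α call was lost in 4 of 6 fits without 1 library. HOXC11 in batch 2 had 23.1, 27.5 and 33.1 in WT, 85.8, 67.8 and 52.1 in HIF-1α (1.30, adjusted p = 0.00151) and 61.3, 82.1 and 80.3 in HIF-1α/2α cells (1.41, adjusted p = 0.000324). Neither gene overlapped WT in these lines. In batch 1 HOXA7 had 8.26, 7.74 and 10.5 in WT and 37.9, 39.9 and 74.4 in HIF-2α cells (2.50, SE 0.653, adjusted p = 0.00915), and leaving out any 1 of the 6 libraries lost the call. HOXA7 and HOXC11 passed the looser rule in batch 1 HIF-1α cells, at 2.34 (adjusted p = 0.0211) and 1.64 (adjusted p = 0.0143), and both were called with replicate blocks (adjusted p = 0.00167 and 0.00494) and with DESeq2 (adjusted p = 0.00291 and 0.00117).

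A set of other HOX genes was lower in cells with added HIF-2α. HOXB4, a regulator of blood stem cell expansion, had 653, 687 and 625 normalized counts in batch 1 WT and 297, 227 and 377 in HIF-2α cells (−1.12, SE 0.17, adjusted p = 2.64e-05), and the groups did not overlap. The call was lost without HIF-2α replicate 2. It was lower than in R27E by −0.78 (adjusted p = 0.00259) and than in HIF-2αDM by −0.81 (adjusted p = 0.00159) on the log2 scale. In batch 2 HOXB4 had 672, 589 and 650.4 in WT, 358, 338 and 349.8 in HIF-2α (−0.87, adjusted p = 2.05e-08) and 395, 469 and 484 in HIF-1α/2α cells (−0.51, adjusted p = 0.000249).

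HOXC8, a central HOXC gene, was lower with both α subunits. In batch 1 it had 221, 200.3 and 205 normalized counts in WT, 111, 103 and 118 in HIF-1α (−0.91, adjusted p = 0.00959) and 61.6, 70.9 and 114 in HIF-2α cells (−1.34, SE 0.233, adjusted p = 0.000162). Neither line overlapped WT. It was called lower in HIF-2α cells than in R27E (−1.12, adjusted p = 0.00173) and HIF-2αDM (−1.05, adjusted p = 0.0029), but the R27E call was lost with no filter and without HIF-2α replicate 1 or 2, and the HIF-2αDM call with DESeq2, with no filter and in 4 of 6 fits without 1 library. In batch 2 its log2 change over WT was −0.52 in HIF-1α, −0.72 in HIF-2α/1α, −0.82 in HIF-2α and −0.55 in HIF-1α/2α cells, all past the looser rule.

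HOXC4 and HOXC6, which share exons and are partly read from common transcripts, moved apart. HOXC4 had 761, 827 and 793 normalized counts in batch 1 WT and 1368, 1365 and 1363 in HIF-2α cells (0.78, adjusted p = 0.00174). In batch 2 it had 598, 552 and 526 in WT, 1154, 1171 and 973 in HIF-2α (0.98, adjusted p = 1.92e-11) and averaged 1087 in HIF-1α/2α cells (0.96, adjusted p = 2.96e-11). HOXC6 in batch 2 had 917, 1010.0 and 1051 in WT, 663, 657 and 671 in HIF-2α (−0.58, adjusted p = 5.9e-07) and 533, 531 and 565 in HIF-1α/2α cells (−0.87, adjusted p = 4.5e-11). So HOXC4 was above and HOXC6 below every WT library in these lines, each under a fold of 2. HOXC10 had 810, 819 and 778 in batch 2 WT and passed the looser rule in HIF-1α (0.43) and HIF-2α/1α cells (0.35).

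HOXA3, HOXA5 and HOXA9 were lower in both lines with a HIF-2α IDR in batch 2. Not all HOXA genes were: in HIF-2α cells the log2 change was 0.005 for HOXA2 and 1.12 for HOXA7. HOXA5, a central gene that acts in lung development, had 576, 639 and 690 normalized counts in WT, 414, 297 and 353 in HIF-2α (−0.84, SE 0.121, adjusted p = 1.66e-07) and 358, 395 and 323 in HIF-1α/2α cells (−0.82, SE 0.12, adjusted p = 2e-07). It averaged 715 in HIF-1α and 659 in HIF-2α/1α cells, so only the lines with a HIF-2α IDR lay below WT. HOXA3 had 4176, 4189 and 4329 in WT, 3138, 3221 and 3164 in HIF-2α (−0.41, adjusted p = 4.38e-07) and 2494, 2338 and 2606 in HIF-1α/2α cells (−0.77, adjusted p = 5.04e-14). HOXA9, whose protein drives some leukemias, had 3129, 3116 and 3150 in WT, 2360, 2594 and 2374 in HIF-2α (−0.36, adjusted p = 4.72e-05) and 2012, 2166 and 2078 in HIF-1α/2α cells (−0.59, adjusted p = 2.58e-09). In batch 1 HOXA5 changed by −0.29 in HIF-2α cells (SE 0.248, adjusted p = 0.491). It was called lower in them than in R27E (−1.10, SE 0.249, adjusted p = 0.00408), but R27E replicate 3 had 1067 normalized counts against 465 and 578 in the other two, and without it the value was −0.67 and not called.

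Counted over all members, few were called in the stable lines of batch 1, and in the batch 2 lines with a HIF-2α IDR the HOXD median was above 0 and the HOXA median below it. In batch 1 HIF-2α cells 3 of 35 members were called higher, against 3.78% of 23410 genes, and 2 lower, against 1.94%, with a median log2 change of −0.10 against −0.09 over all genes. The looser rule gave 5 higher (background 7.77%) and 3 lower (5.91%). In HIF-1α cells 1 was called higher (background 3.27%) and 0 lower (0.517%), at a median of 0.11 against −0.03, and by the looser rule 5 were higher (5.81%) and 1 lower (2.32%). In HIF-1α R30E cells 1 member, HOXB2, was called higher (background 2.04%) and none lower (0.572%). It had 2459, 1830 and 2662 normalized counts there, a log2 change of 1.02 (adjusted p = 0.00503), which was lost in 5 of 6 fits without 1 library. HOXA5 (1.02, adjusted p = 0.0102) and HOXA10 (0.71, adjusted p = 0.0195) were higher there by the looser rule, so that 3 were higher (background 3.81%) and 0 lower (1.8%). HOXA5 was called with replicate blocks (adjusted p = 0.000858) and with DESeq2 (adjusted p = 0.00119). No member was called by edgeR in HIF-1αDM (background 0.457% in either direction), HIF-2α R27E (0.496%) or HIF-2αDM (0.474%) against WT. At an unadjusted p under 0.05 there were 3, 5 and 2 members in these groups, and DESeq2 called 0 in each. Against R27E 1 member was called higher in HIF-2α cells (background 2.09%) and 2 lower (1.53%), and against HIF-2αDM 1 higher (2.48%) and 1 lower (1.48%). These were 3 higher and 6 lower by the looser rule against R27E (backgrounds 4.41% and 4.1%) and 3 and 3 against HIF-2αDM (5.02% and 4.11%). HIF-1α cells had no member called by edgeR against R30E (background 1.75% in either direction) or HIF-1αDM (1.37%), with 10 and 4 members at an unadjusted p under 0.05 and 0 and 1 called by DESeq2.

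In batch 2, 3 of 36 members were called higher in HIF-1α cells (background 3.9% of 28724 genes) and none lower (0.484%), at a median of 0.23 against 0.03 over all genes. The looser rule gave 11 higher (12.1%) and 2 lower (10.7%). HIF-2α/1α cells had none called by edgeR (background 3.49% in either direction), with 10 at an unadjusted p under 0.05 and 0 by DESeq2, and by the looser rule 7 higher (12%) and 2 lower (11.2%). HIF-2α cells had 3 called higher (background 5.45%) and 0 lower (2.13%), at a median of 0.00 against 0.07. HIF-1α/2α cells had 6 called higher, HOXA7, HOXA13, HOXC11, HOXD9, HOXD10 and HOXD11, against a background of 5.1%, and 1 lower, HOXB13, against 2.68%. By the looser rule the HOXD genes in HIF-2α cells were 5 of 9 higher and 0 lower, where 17.2% and 16.7% of all genes were, at a HOXD median of 0.77. HOXA genes were 1 higher and 5 lower of 11, at a median of −0.36. In HIF-1α/2α cells by the same rule (backgrounds 17.5% and 16.9%) HOXD had 6 higher and 0 lower at a median of 0.87, and HOXA 2 higher and 4 lower at a median of −0.28.

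**Figure D3:**
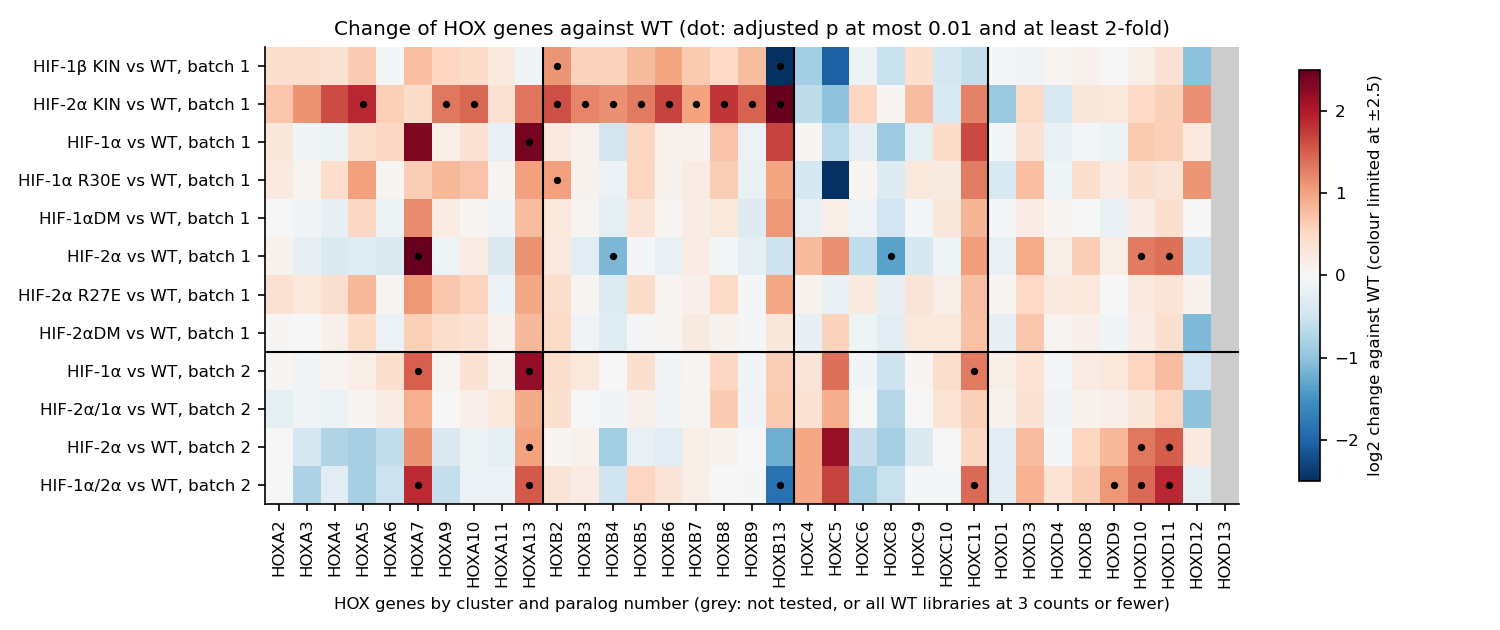
Log2 change of the tested HOX genes (columns, by cluster and number) over WT of the same batch in the 12 groups compared with it (rows), red higher and blue lower, with a dot where called. Grey marks genes not tested or with at most 3 counts in every WT library. The HOXB genes are red in HIF-2α KIN, with 9 of 9 tested genes called, and HOXD10 and HOXD11 are red in HIF-2α and HIF-1α/2α.

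The domain swaps allow the parts of the protein to be compared with no WT library in the comparison. The lines also differed in transgene RNA, so a protein part cannot be told apart from the line or its transgene level. The IDR effect is the mean log2 level in HIF-2α and HIF-1α/2α minus that in HIF-1α and HIF-2α/1α cells, and the structured-domain effect is the mean in HIF-2α and HIF-2α/1α minus that in HIF-1α and HIF-1α/2α cells. For the IDR effect 1 of 36 members was called higher with the HIF-2α IDR, HOXD11, against 1.9% of all genes, and 1 lower, HOXB13, against 2.5%. HOXD11 was higher by 1.04 (SE 0.0887, adjusted p = 1.75e-13), and the call was lost only without HIF-2α replicate 1. HOXD10 was higher by 0.95 (SE 0.0512, adjusted p = 4.04e-20), just under a fold of 2, and HOXD9 by 0.76 (SE 0.0583, adjusted p = 8.27e-15).

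By the looser rule 7 members were higher with the HIF-2α IDR (background 15.1%) and 15 lower (16.5%). The higher ones were HOXD3, HOXD4, HOXD8, HOXD9, HOXD10, HOXD11 and HOXC4, the last at 0.63 (adjusted p = 2.47e-10). HOXD1, at the far end of its cluster, was the HOXD gene that was lower (−0.40, adjusted p = 0.00607). In HOXA 8 of 11 genes were lower and 0 higher, at a median of −0.38 against 0.02 over all genes. HOXA5 had the largest of these values (−0.94, SE 0.0853, adjusted p = 1.15e-12), followed by HOXA6 (−0.86), HOXA9 (−0.51), HOXA3 (−0.50), HOXA4 (−0.48), HOXA10 (−0.38) and HOXA11 (−0.37). HOXA10 and HOXA11 are posterior genes, so the HOXA genes from HOXA3 to HOXA11 were lower, except HOXA7 (0.30, not past the rule), while the HOXD genes from HOXD3 to HOXD11 went up. In HOXB 4 of 9 were lower, among them HOXB4 (−0.65, adjusted p = 6.24e-09) and HOXB8 (−0.52, adjusted p = 7.73e-07), and in HOXC HOXC6 (−0.70, adjusted p = 1.35e-12) and HOXC10 (−0.40, adjusted p = 1.06e-05).

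HOXB13, a prostate and hindgut factor that was low in 786-O cells, had the largest IDR effect. It had 15.4, 30.7 and 32.1 normalized counts in WT, 40.5, 40.7 and 39.8 in HIF-1α, 48.5, 30.2 and 45.5 in HIF-2α/1α, 17.8, 10.4 and 4.69 in HIF-2α, and 13.3, 5.95 and 1.08 in HIF-1α/2α cells. All 6 libraries with a HIF-2α IDR lay under all 6 with a HIF-1α IDR. The effect was −2.18 (SE 0.363, adjusted p = 3.3e-06), and against WT the HIF-1α/2α cells were lower by −1.86 (SE 0.531, adjusted p = 0.0044), a call lost in 4 of 6 fits without 1 library.

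The structured domains went with smaller differences. No member was called by edgeR (background 1.04% in either direction), with 17 at an unadjusted p under 0.05 and 0 by DESeq2. By the looser rule 3 were higher with the HIF-2α structured domains (background 8.3%) and 9 lower (8.67%). HOXA13 had the largest of these (−0.89, SE 0.172, adjusted p = 0.000116), next to an IDR effect of −0.30 (SE 0.172, adjusted p = 0.2). HOXC11 was lower by −0.80 (SE 0.22, adjusted p = 0.00692), next to an IDR effect of 0.016 (SE 0.221, adjusted p = 0.993). HOXD9, HOXD10 and HOXD11 were lower by −0.21, −0.17 and −0.31 (adjusted p = 0.00724, 0.012 and 0.0101), each against a larger IDR effect of the other sign. The interaction of both effects had no member called by edgeR (background 1.18%), with 8 at an unadjusted p under 0.05 and 0 by DESeq2. By the looser rule (backgrounds 5.03% higher and 4.36% lower) it had 2 higher, HOXA3 (0.36, adjusted p = 0.00467) and HOXA9 (0.30, adjusted p = 0.0479), and 1 lower, HOXB6 (−0.61, adjusted p = 0.00144).

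**Figure D4:**
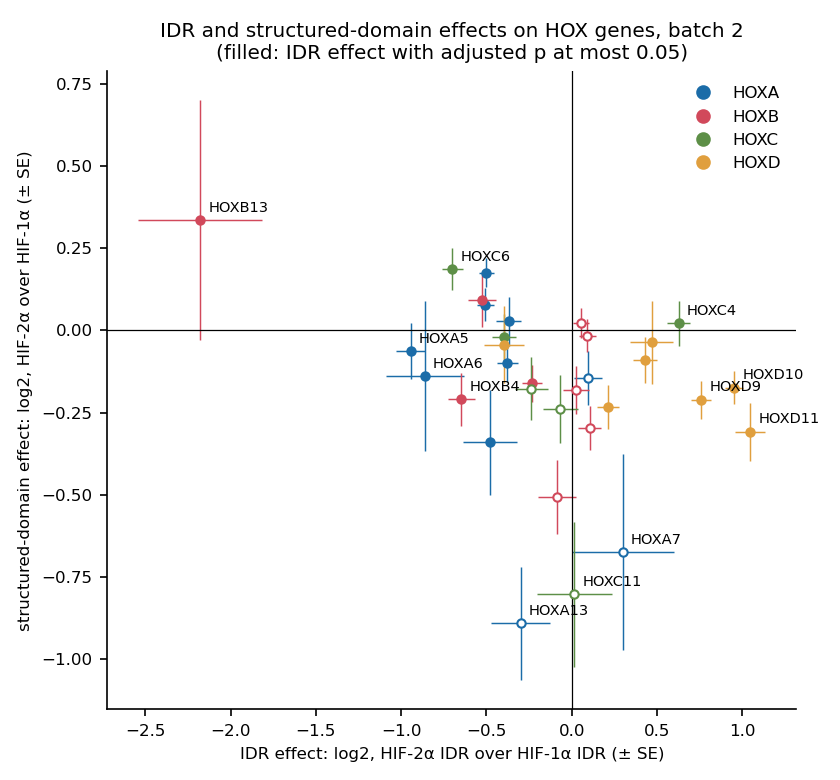
IDR effect (x axis, log2) against structured-domain effect (y axis, log2) in batch 2 for 32 of the 36 tested HOX genes, each with an SE of at most 0.5, colored by cluster, with bars of 1 SE. HOXD9, HOXD10 and HOXD11 lie at the right (0.76 to 1.04), HOXB13 at the far left (−2.18), and HOXA13 and HOXC11 at the bottom (−0.89 and −0.80).

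WT, HIF-1α and HIF-2α cells were sequenced in both batches, so the difference of a response between batches could be tested in 1 fit of these 18 libraries. No member was called for HIF-1α (background 0.00374%) or HIF-2α (background 0%), and DESeq2 called 0 in both. At an unadjusted p under 0.05 there were 0 for HIF-1α and 5 for HIF-2α, HOXA5, HOXA7, HOXA9, HOXA10 and HOXD9, with a smallest adjusted p of 0.264. The response of HOXD10 to HIF-2α differed by −0.12 between batches (SE 0.156) and that of HOXD9 by 0.52 (unadjusted p = 0.00692, adjusted p = 0.266).

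The HIF-2α KIN clone had the most HOX genes called, though not the most past the looser rule, and its HOXB genes were higher together. HOXB9, the posterior gene with the highest level, had 2986, 3037 and 3042 normalized counts in WT and 8426, 8563 and 8267 in HIF-2α KIN cells (1.48, SE 0.127, adjusted p = 6.23e-09). HOXB8 had 536, 538 and 593 in WT and 1869, 1620 and 2256 in HIF-2α KIN cells (1.79, SE 0.207, adjusted p = 7.38e-07). HOXB6 had 1286, 1415 and 1593 in WT and 4524, 3555 and 5854 in HIF-2α KIN cells (1.70, SE 0.236, adjusted p = 1.18e-05). In each of these genes every HIF-2α KIN library was above every WT library. HOXB2, which acts in hindbrain patterning, had 1239, 994 and 1196 in WT and 3560, 2832 and 4048 in HIF-2α KIN cells (1.61, adjusted p = 1.99e-05). HOXB7, the gene with the highest RPKM in WT, had 2520, 2273 and 2486 in WT and 5415, 3894 and 5250 in HIF-2α KIN cells (1.00, SE 0.148, adjusted p = 2.77e-05), right at the fold threshold. Its call was lost with replicate blocks (0.99), with no filter, and without WT replicate 2, HIF-2α KIN replicate 1 or HIF-2α KIN replicate 3.

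HOXB3, HOXB4 and HOXB5 were called too. HOXB3 had 747, 878 and 789 in WT and 1719, 1617 and 2259 in HIF-2α KIN cells (1.21, adjusted p = 0.000111). HOXB4 had 1434, 1303 and 1597 in HIF-2α KIN cells (1.14, adjusted p = 2.46e-05), against 625 to 687 in WT. HOXB5 had 149, 170.3 and 160 in WT and 373, 325 and 477 in HIF-2α KIN cells, and its call (adjusted p = 0.00478) was lost in 5 of 6 fits without 1 library. HOXB13 had 19.8, 12.6 and 27.4 in WT and 186, 74.2 and 161 in HIF-2α KIN cells (2.80, SE 0.559, adjusted p = 0.00105), a call lost without WT replicate 2. Thus 9 of 9 tested HOXB genes were called higher (background 2.35%), and 8 of 9 with replicate blocks. Their libraries did not overlap between the groups, and the share of all genes without overlap was not computed.

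In HOXA 3 of 11 genes were called higher in HIF-2α KIN cells. HOXA5 had 393, 396 and 417 normalized counts in WT and 1514, 1328 and 1593 in HIF-2α KIN cells (1.88, SE 0.251, adjusted p = 6.66e-06). HOXA10, a posterior gene of uterine and renal development, had 1115, 1034 and 1071 in WT and 2983, 2561 and 3141 in HIF-2α KIN cells (1.43, adjusted p = 5.49e-06). HOXA9 had 2187, 1567 and 1789 in WT and 4373, 3538 and 5832 in HIF-2α KIN cells (1.31, adjusted p = 0.00147), a call lost without WT replicate 2, WT replicate 3 or HIF-2α KIN replicate 3. These 3 genes did not overlap between the groups, again with no share over all genes computed. HOXA3 had 4756, 5650 and 6697 in WT and 11375, 10890 and 14834 in HIF-2α KIN cells (1.12, adjusted p = 0.0166), and was called with the replicate block (adjusted p = 4.05e-07) and with DESeq2 (adjusted p = 0.00304). HOXA4 (1.63, adjusted p = 0.0596) and HOXA13 (1.34, adjusted p = 0.0714) were called with replicate blocks (adjusted p = 5.32e-06 and 0.00441) and not with DESeq2. No gene of HOXC or HOXD was called, and HOXC4 (−0.64, adjusted p = 0.013) and HOXD1 (−0.93, adjusted p = 0.0348) were lower by the looser rule. Over all members 12 of 35 were called higher against 2.35% of all genes, and 0 lower against 1.79%, with a median of 0.78 against −0.04. The looser rule gave 14 higher (5.39%) and 2 lower (5.01%). By cluster the median was 1.12 in HOXA, 1.48 in HOXB, 0.02 in HOXC and 0.38 in HOXD.

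The genes around HOXB moved with it in this clone. Among 54 other genes within 2 Mb of the cluster with a mean of at least 50 normalized counts, 53 were above 0, 22 were called higher and 0 lower, and the median log2 change was 1.03. The median was 0.42 over 763 genes of chromosome 17 and −0.07 over 12640 genes in all. It was −0.01 over 222 genes more than 20 Mb before HOXB, and between 0.38 and 1.05 in each of the other windows of the chromosome. Around HOXA, HOXC and HOXD it was 0.14 (n = 17), 0.09 (n = 57) and −0.13 (n = 23), beside medians of 1.12 for the HOXA genes and 1.48 for the HOXB genes themselves. These neighbour sets leave out only the coding HOX genes, so they hold noncoding RNAs of the clusters. Around HOXA these were HOTAIRM1 (1.02), HOXA-AS2 (1.17), HOXA-AS3 (1.32), HOXA11-AS (0.55) and HOXA10-AS (−0.21). Medians without them were not computed. Relative to the median of its neighbours, HOXB7 was at −0.032, HOXB4 at 0.11, HOXB3 at 0.18, HOXB5 at 0.26, HOXB9 at 0.45, HOXB2 at 0.57, HOXB6 at 0.67, HOXB8 at 0.75 and HOXB13 at 1.77. What part of the HOXB values goes with the whole region was not tested.

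**Figure D5:**
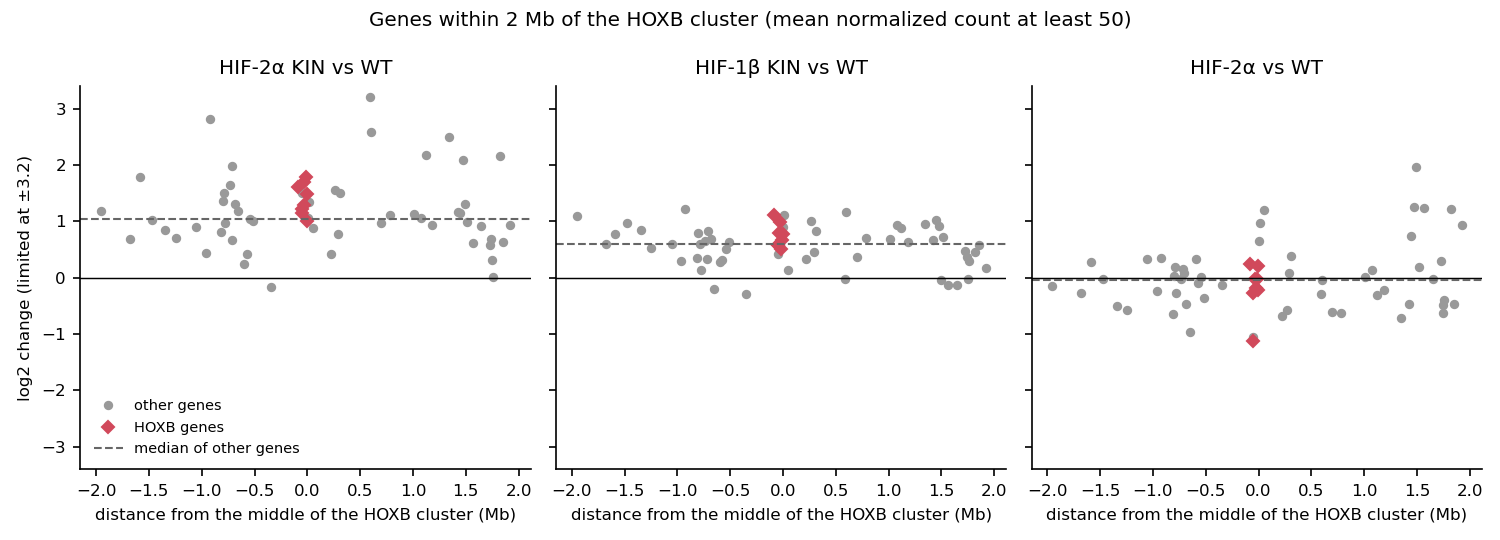
Log2 change over WT of genes within 2 Mb of HOXB, by distance from the cluster in Mb, in HIF-2α KIN, HIF-1β KIN and batch 1 HIF-2α cells. HOXB2 to HOXB9 are red, other genes grey, and the dashed line is the median of the other genes, which lies at 1.03, 0.59 and −0.04.

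HIF-1β KIN cells, the other clone, had lower values over the same region. HOXB2 had 2323, 2229 and 2834 normalized counts, against 994 to 1239 in WT (1.11, adjusted p = 0.00403), and was the only member called higher (background 0.393%). The call was lost in 5 of 6 fits without 1 library. By the looser rule HOXB6 (0.98), HOXB7 (0.66) and HOXB9 (0.78) were higher as well (adjusted p = 0.0136, 0.00803 and 0.000244), so that 4 were higher (background 1.36%) and 2 lower (1.89%). The 54 neighbours of HOXB had a median of 0.59, with 47 above 0 and 4 called higher, and the median over chromosome 17 was 0.25. HOXB13 was the only member called lower (background 0.982%). It had no counts in 2 libraries and 1 in the other (0, 0 and 0.854 normalized counts), at least 6.66-fold under WT with 3 counts per library taken as the floor, and it was not called when only these 2 groups were fitted. HOXB13 was thus called in opposite directions in the clones, against WT libraries that they share, and the difference between the clones was not tested. HOXC4 was lower in HIF-1β KIN cells by the looser rule (−0.84, adjusted p = 0.003).

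Genes known to act with or on HOX genes were counted in the same fits. Of 17 tested noncoding RNAs of the HOX clusters, 4 were called higher in HIF-2α KIN cells (background 2.35%) and none lower (1.79%), at a median of 1.05: HOXA-AS3 (1.32, adjusted p = 0.00505), HOXA-AS2 (1.17, adjusted p = 1.09e-05), HOXD-AS2 (1.11, adjusted p = 0.00158) and HOXB-AS4 (1.05, adjusted p = 0.00483). Replicate blocks called 5 there and DESeq2 6. In batch 2 HOXD-AS2 was the only one called, in HIF-2α (1.19, adjusted p = 4.17e-08, background 5.45% higher) and HIF-1α/2α cells (1.77, adjusted p = 9.95e-13, background 5.1%). Counting did not use strand, and reads shared with a coding neighbour could not be given to either. None was called by edgeR against WT in the other groups, with 1 to 8 at an unadjusted p under 0.05 in each, and DESeq2 called 1, HOXD-AS2 in R30E cells. Of 21 tested chromatin regulators of HOX clusters, among them EZH2 of Polycomb repressive complex 2 and KMT2A, none was called by edgeR in any comparison against WT, where at most 5.45% of all genes were called in one direction. At an unadjusted p under 0.05 there were 1 to 5 in each group of batch 1 and 7 to 14 in batch 2, and DESeq2 called 1, KDM6B in batch 1 HIF-2α cells. By the looser rule 4 were higher and 8 lower in batch 2 HIF-2α cells (backgrounds 17.2% and 16.7%), and 5 and 5 in HIF-1α/2α cells (17.5% and 16.9%).

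At most 5.45% of all genes were called higher in any comparison against WT. Among 8 tested TALE cofactors, homeodomain proteins that bind DNA with HOX proteins, MEIS3 was called higher in all 4 lines of batch 2. It was also called higher in batch 1 HIF-1α, R30E and HIF-2α cells. It averaged 3.63 normalized counts in batch 1 WT, 87.2 in R30E and 91.9 in HIF-2α cells (4.69, adjusted p = 2.34e-05), and in batch 2 6.29 in WT, 94.9 in HIF-2α and 94.7 in HIF-1α/2α cells (both 3.92), against 21.8 in HIF-1α and 22.9 in HIF-2α/1α cells. Its IDR effect was 2.09 (SE 0.243, adjusted p = 1.18e-09, background 1.9% higher). PBX4 was called lower in HIF-2α KIN (−1.16, adjusted p = 0.00166, background 1.79%) and R30E cells (−1.19, adjusted p = 0.00195, background 0.572%). Of the upstream regulators, 3 were tested in batch 1 and 5 in batch 2. RARA, a retinoic acid receptor, averaged 3036 in batch 1 WT and 13511 in HIF-2α cells (2.15, adjusted p = 7.86e-06, background 3.78% higher). In batch 2 RARA averaged 1788 in WT, 6351 in HIF-2α and 6265 in HIF-1α/2α cells (backgrounds 5.45% and 5.1%). It was also above WT in HIF-1α (3178) and HIF-2α/1α cells (2983), under a fold of 2. Its IDR effect was 1.03 (SE 0.0475, adjusted p = 1.41e-22, background 1.9%).

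The kidney development list (6 genes tested in batch 1, 7 in batch 2) holds genes that work with the paralog group 11 HOX proteins. GDNF, the ureteric bud growth factor, averaged 5.61 normalized counts in batch 2 WT, 99.4 in HIF-2α (4.08, adjusted p = 7.21e-14, background 5.45% higher) and 377 in HIF-1α/2α cells (6.00, adjusted p = 3.91e-20, background 5.1%). Its IDR effect was 4.88 (SE 0.233, adjusted p = 5.36e-22, background 1.9%). OSR1 averaged 6.30 in batch 1 WT and 88.7 in HIF-2α KIN cells (3.77, adjusted p = 0.000714, background 2.35%). SALL1 was called higher in HIF-2α KIN cells (1.06, adjusted p = 0.000358, background 2.35%). It was called lower in HIF-1α/2α cells (−1.11, adjusted p = 1.89e-17, background 2.68%), where it averaged 1116 against 2415 in WT. SALL1 averaged 1293 in batch 2 HIF-2α cells and was not called there. PAX2 was called lower in batch 1 HIF-1α cells (−1.08, adjusted p = 0.00607, background 0.517%). In batch 2 PAX2 averaged 1328 in WT, 686 in HIF-1α, 818 in HIF-2α/1α, 675 in HIF-2α and 693 in HIF-1α/2α cells, with no call. Of the 11 tested genes that flank the clusters, none was called by edgeR or DESeq2 in the KIN clones, with 4 at an unadjusted p under 0.05 in each (backgrounds 2.35% higher and 1.79% lower in HIF-2α KIN, 0.393% and 0.982% in HIF-1β KIN). One each was called in batch 1 HIF-2α, batch 2 HIF-2α and HIF-1α/2α cells. TTLL6 beside HOXB, a gene of at most 42 raw counts in WT that was named after its value was seen, was lower in batch 1 HIF-2α cells (−3.16, adjusted p = 0.00507, background 1.94%). CALCOCO1 beside HOXC was higher in batch 2 HIF-2α cells (1.20, adjusted p = 7.52e-15, background 5.45%) and SKAP1 beside HOXB lower in HIF-1α/2α cells (−1.02, adjusted p = 8.83e-13, background 2.68%).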

How the data were processed

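Poly-A RNA-seq was deposited by the authors as raw read counts per gene, 1 value per gene and library. Per the labels and the study's methods, reads were aligned to hg38 with STAR, keeping unique alignments only, and counted with HTSeq in union mode without strand against GENCODE. The submitters' processing notes name STAR 2.7, SAMtools 1.9 and HTSeq 0.11.1. Unique alignment can drop reads from stretches that paralogs share, and union mode drops reads that overlap 2 genes, so levels of overlapping genes are low estimates. Batch 1 RNA was taken with RNeasy and batch 2 RNA with TRIzol, with different library kits.

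Tests were run with edgeR 4.0.16 under R 4.3.3 (TMM, glmQLFit and glmQLFTest, two-sided, Benjamini-Hochberg over all genes tested). There was 1 fit per batch with all its groups (23410 and 28724 genes whose normalized counts averaged at least 0.5). Another fit took the 18 libraries of the groups sequenced in both batches (26763 genes). The thresholds are those of the study's methods, which used DESeq2. A normalized count is the count divided by the library's TMM-effective size over the batch mean of these sizes. Exon lengths and loci came from GENCODE release 44, which matched 60340 of 60609 gene IDs and may differ from the release used for counting. Promoters came from RefSeq. Values of 1 HOXA gene are not reported here, and the figures leave it out. No replicates were identical. The edgeR fit, test and calling steps were tested on simulated counts, for a comparison against WT in each batch.

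Members and gene lists were chosen with earlier results of these data known. Values by library are given for HOX genes called against WT with a group mean of at least 50 and for the 3 highest per cluster in WT, and other lists name at most 4 called genes of that level. In batch 1 libraries of the same replicate number deviated from their group means together: correlations with WT were 0.167 to 0.828 in all 8 comparisons, and over all pairs of the compared groups the range was −0.214 to 0.828. A fit with these numbers as blocks (replicate blocks) is therefore given beside results it changes. The alternatives were DESeq2 1.42.0, RLE size factors, no filter, a looser threshold, the block, only the groups compared, and leaving out each library. HOXB values set against their neighbours, and DESeq2 and the block for the other gene lists, were added after seeing the data. Depth limits genes near silence: 3 counts per library were taken as the floor. DESeq2 results beside counts of 0 use the same thresholds.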

Additional observations from a re-analysis of the deposited data

How the results depend on the processing

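Counts of called HOX genes moved by over 1.5 times in these cases, and the cause was not tested. At an adjusted p of at most 0.05 with any fold, the counts were 6 in HIF-1β KIN, 6 in batch 1 HIF-1α, 3 in R30E, 8 in batch 1 HIF-2α, 9 for HIF-2α over R27E and 6 over HIF-2αDM, and in batch 2 13 in HIF-1α, 9 in HIF-2α/1α, 18 in HIF-2α, 21 in HIF-1α/2α, 22 for the IDR effect, 12 for the structured-domain effect and 3 for the interaction. In batch 1 HIF-1α cells 4 were called with the replicate block, 3 with DESeq2, and 2 with no filter or with only the groups compared. In R30E cells 2 were called with each of these and with RLE size factors. The block called 1, HOXA13, for HIF-1α over R30E and over HIF-1αDM, and DESeq2 1 over HIF-1αDM. HIF-1β KIN had 1 with only the groups compared. With the block 14 members were called in HIF-2α KIN, without HOXB7 and with HOXA3, HOXA4 and HOXA13 added, and HOXA7 was added for HIF-2α over HIF-2αDM. The batch 2 replicate numbers did not pair the libraries (correlations −0.0431 to 0.143), and the block changed no count there.

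Leaving out 1 library gave 1 to 2 calls in HIF-1β KIN, 8 to 12 in HIF-2α KIN, 0 to 1 in batch 1 HIF-1α and R30E, 3 to 4 in batch 1 HIF-2α, 1 to 3 for HIF-2α over R27E and over HIF-2αDM, and in batch 2 1 to 3 in HIF-1α, 0 to 1 in HIF-2α/1α, 2 to 4 in HIF-2α, 6 to 8 in HIF-1α/2α and 2 to 3 for the IDR effect. HOXD10 kept its calls against WT in every such fit. Of values for single named genes, DESeq2 kept 40 and lost 1, RLE kept 41, no filter kept 37 and lost 4, and the block kept 40 and lost 1. Fits of only the groups compared kept 32 and lost 2, and fits without 1 library kept 200 and lost 58. Set against its neighbours, HOXB7 in HIF-2α KIN turned from 1.00 to −0.032. Over exon bases that no other gene shares, summed WT levels were 58.3, 72.2, 18.4 and 36.5 RPKM for HOXA to HOXD in batch 1 and 50.1, 54.0, 16.0 and 26.0 in batch 2, and 44.9, 80.8 and 59.7 (batch 1) and 29.1, 54.1 and 62.9 (batch 2) for anterior, central and posterior genes. Genes under about 50 normalized counts, HOXA7 and HOXB13 among them, rest on few reads. RLE moved the median of all genes by at most 0.0663 on the log2 scale in any group.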
